A study of Mus musculus with 6 samples.

Results

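Naive CD4 T cells activated in culture were set against regulatory T cells in mice with and without the convertase Furin, on 4 of the 6 arrays of the series. The members are these 4 arrays, chosen by their labels: 1 activated and 1 regulatory array of each of 2 genotypes. The control mice carried Fur flox/flox alleles, which are flanked by loxP sites, with no Cre named in the labels. The Furin cKO (conditional knockout) mice carried the same alleles with CD4 cre, a Cre recombinase that is switched on while T cells develop in the thymus. All mice were C57BL/6, a standard inbred strain, and 10 to 11 weeks old. For the activated arrays, naive CD4+ cells, sorted by surface markers that include absence of CD44, were cultured for 2 days on plates coated with 5 µg/ml of anti-CD3 and as much anti-CD28, antibodies which engage the T cell receptor and its main co-receptor. For the regulatory arrays, CD4+CD25+FoxP3+ cells were sorted by flow cytometry and used fresh, without culture. The other 2 arrays hold fresh memory cells (CD4+, with CD44 among the sort markers) of both genotypes and serve here as side values.

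The comparison asks which genes separate newly activated conventional T cells from regulatory T cells, and which they share, whatever the genotype. The control pair and the Furin cKO pair of arrays have no array in common, so a difference was counted only when both pairs showed it. Each group is 1 array, and the number of animals behind it is not stated in the labels. Activated cells were cultured and regulatory cells were not, so that cell type, culture and array run cannot be told apart in any result. The Cre acts in all T cells that pass through the CD4 stage, not in one of these populations alone.

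Regulatory T cells restrain other T cells. They depend on the transcription factor FoxP3, carry high-affinity interleukin 2 receptors and display the inhibitory receptor CTLA-4 in the resting state. A naive T cell that meets its antigen leaves quiescence, makes interleukin 2, enlarges, raises the synthesis of ribosomes, nucleotides and lipids, and divides. It also acquires receptors that regulatory cells carry all the time, among them CTLA-4, OX40 and GITR.

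The values are MAS5 signals, intensities on a linear scale that summarise the probes of a probe set, and they are printed with the control array first and the Furin cKO array second. A floor was set at a signal of 47.6, the 40th percentile of all probe sets over the 6 arrays. If 1 of the arrays of a ratio lies below the floor, the fold is at least the value given and is worded so. Each gene is read by 1 probe set, and because probe sets differ in brightness, levels are compared between arrays and no order of abundance between genes is read from them. Where values are set against others, the activated arrays come first. The activated arrays differed from the others in technical measures. On activated arrays 49.4% and 49.8% of probe sets reached the floor, on regulatory arrays 65.8% and 67.4%, and on memory arrays 62.6% and 65.2%. The hybridisation control bioB, an RNA added in equal amount to each array, read 753.8 and 852.3 beside activated, 2503 and 2213 beside regulatory and 4930.3 and 4078 beside memory RNA. The 3' to 5' signal ratio, which grows when RNA is degraded, was 1.22 and 1.24 for beta-actin in activated cells and 1.35 and 1.36 in regulatory cells. That of Gapdh was 1.51 and 1.48 against 0.64 and 0.63. The brightest probe set of an activated array read 27441 and 29062, and that of a regulatory array 56499 and 54256. These measures moved with the populations, and their part in the results was not tested.

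The labelled identities were checked against marker genes before any comparison. The deleted gene itself, Furin, read 516 and 468 in activated cells and 547 and 410.0 in regulatory cells, and 647 and 2203 on the memory arrays. The Furin cKO array was slightly below the control array in activated and regulatory cells and above it in memory cells. The place of its 1 probe set relative to the deleted part is not stated in the labels, so that it does not check the deletion. Foxp3, the gene by which the regulatory cells were labelled, read 27.0 and 11.9 against 50.4 and 33.8. Its only probe set was thus near the floor or below it in all 4, whereas the memory arrays read 1358 and 1116. In this gene the regulatory arrays go against their label. These are the only arrays of regulatory cells analysed here, so none of the results below can be given without them. Other genes typical of regulatory cells were bright on the regulatory arrays. Ikzf2, which encodes the transcription factor Helios, read 582 and 442 against 13901 and 15968, and 9419 and 8213 in memory cells. Izumo1r, the folate receptor 4 gene, read 1889 and 1631 against 13455 and 11739.8. The G protein-coupled receptor gene Gpr83 read 312 and 281 against 2972 and 2707, and 688 and 434 in memory cells. Nrp1, the semaphorin receptor neuropilin 1, read 999.9 and 943 against 4904 and 5766. For each of these 4 genes both regulatory arrays were above all other arrays of the series. The activated arrays carried some, but not all, of the marks of stimulation looked for. Tfrc, Mki67, Il2 and Myc were at least 2-fold higher in both pairs. Tnfrsf4 was higher by less than 2-fold, and Il2ra and Gzmb were lower on both activated arrays. Tfrc, the transferrin receptor, read 13913 and 13532 against 1635 and 1555, and Mki67, a protein of dividing cells, read 9774 and 10102 against 1074 and 2396. The T cell co-receptor gene Cd4 read 2425 and 1821 against 2752 and 2474, a little lower on the activated arrays (adjusted p = 0.25).

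**Figure D1:**
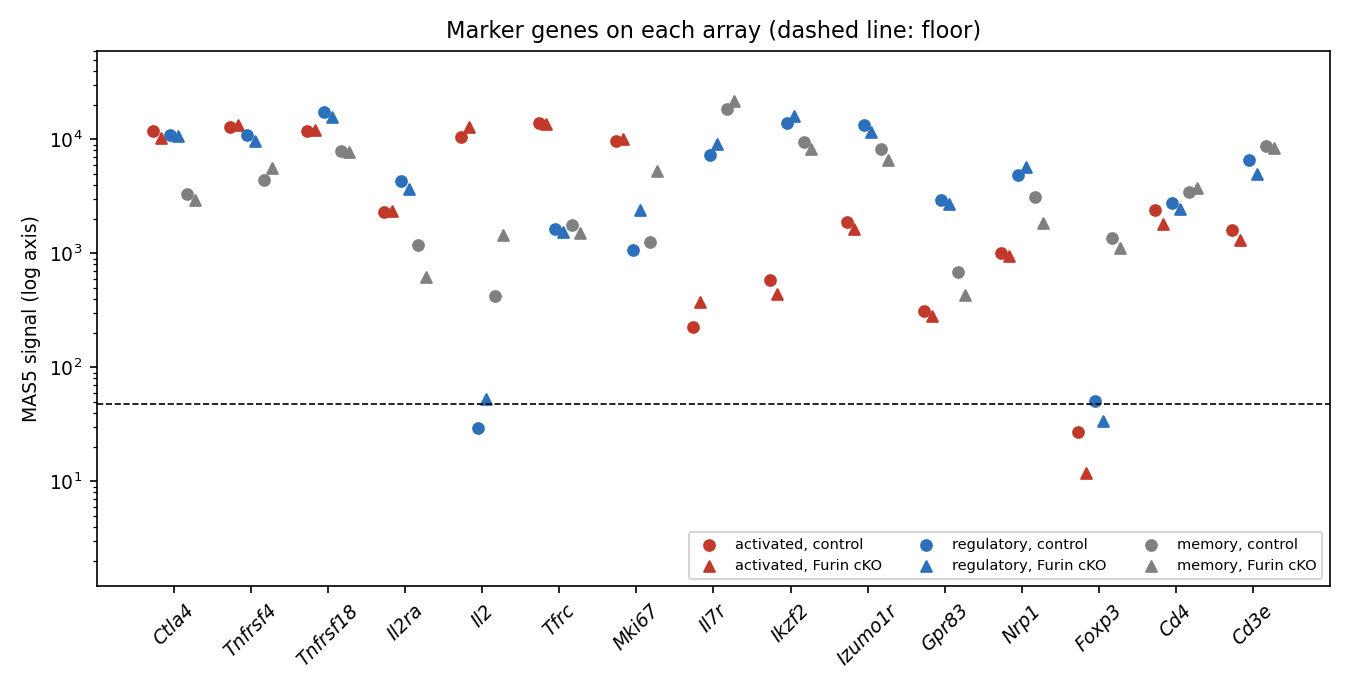
MAS5 signals (log axis) of 15 marker genes on each of the 6 arrays, 1 point per array; circles are control and triangles Furin cKO arrays, and the dashed line is the floor of 47.6. Ctla4, Tnfrsf4 and Tnfrsf18 lie together in activated and regulatory cells, Il7r, Ikzf2, Izumo1r, Gpr83 and Nrp1 are lower on both activated arrays, and Foxp3 lies near or below the floor except on the memory arrays.

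Receptors shared by activated and regulatory cells were level between them, and the interleukin 7 receptor was not. Ctla4, the inhibitory receptor that competes with CD28 for its ligands, read 11925 and 10316 in activated cells and 11033 and 10619 in regulatory cells. The values of the populations interleaved, and the log2 difference of activated over regulatory was 0.04 (SE 0.14, adjusted p = 0.9). Memory cells read 3339.9 and 2934, below all 4. Tnfrsf4, which encodes the co-stimulatory receptor OX40, read 12954 and 13258 against 10894 and 9766, with memory cells at 4403 and 5654. Its activated arrays were above its regulatory arrays without passing the test (adjusted p = 0.21). Tnfrsf18, the GITR gene, read 11839.5 and 12040.2 against 17376 and 15756, and memory cells 7903 and 7828. The regulatory arrays were the brighter ones, again short of the threshold (adjusted p = 0.055). Il7r, the interleukin 7 receptor that keeps resting T cells alive, read 225 and 372 against 7317 and 9034. Both activated arrays were far below both regulatory arrays, 32.5-fold and 24.3-fold lower in the control and Furin cKO pairs (adjusted p = 0.0018). Memory cells were brighter still at 18389 and 21717. The gene of the sorted receptor CD25, Il2ra, read 2320.5 and 2340.2 against 4277 and 3702, and 1190.3 and 627 in memory cells. It was higher on both regulatory arrays, by less than 2-fold in each pair (adjusted p = 0.086).

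Across the genome the populations differed widely and the genotypes agreed. Of 18193 genes on the array, 12466 were measured, meaning above the floor on at least 1 array of each pair. In both pairs, 1746 of them (14.0%) were at least 2-fold higher in activated cells and 2609 (20.9%) at least 2-fold lower, and "called" below means one of these. At 4-fold the counts were 514 and 789, and at 16-fold 36 and 87. The control pair by itself gave 2059 genes higher and 3338 lower among the measured genes. Of these, 84.8% and 78.2% were also past 2-fold in the same direction in the Furin cKO pair. The log2 differences of the pairs correlated at a Pearson r of 0.94 across the 12466 genes, which share the arrays and are not independent replicates. Their median absolute difference was 0.25 on the log2 scale. The median gene was not at 0 but at -0.34, and gene lists are read against that value below. The shares called in each list are read against the 14.0% higher and 20.9% lower. Many of the genes called lower were near the detection limit in culture. In 564 of the 2609, both activated arrays were below the floor, against 67 of the 1746 called higher with both regulatory arrays below it. Among 9630 genes above the floor on all 4 arrays, 1605 were called higher and 1863 lower.

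**Figure D2:**
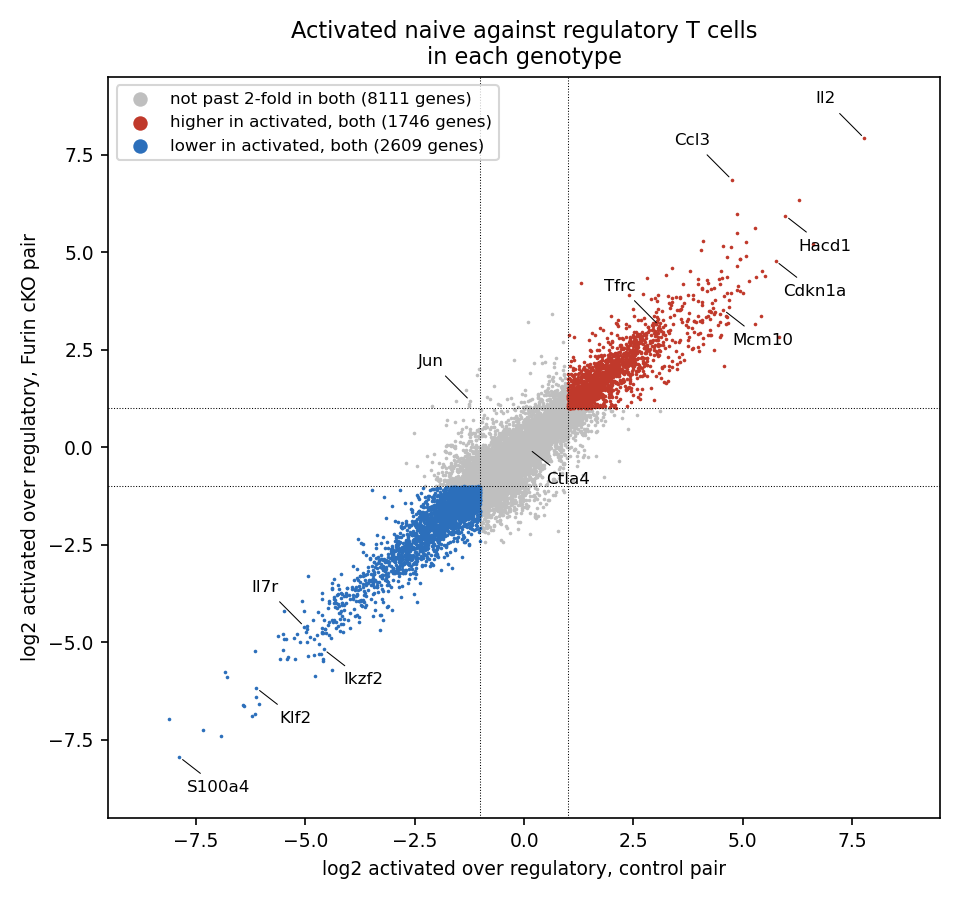
Log2 difference of activated over regulatory signal in the control pair (x axis) and the Furin cKO pair (y axis), 1 point per measured gene, with dotted lines at 2-fold. The 1746 genes past 2-fold upward and the 2609 past 2-fold downward in both pairs lie along the diagonal, with Il2 and S100a4 near its ends.

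A linear model over all 6 arrays (limma, with population and genotype as terms) called 2867 of 15808 genes higher (18.1%) and 4196 lower (26.5%) in activated cells at an adjusted p under 0.05. It included 1720 of the 1746 and 2533 of the 2609 genes past 2-fold in both pairs. The model has 2 residual degrees of freedom, and its p-values measure how much the population difference varied between genotypes, not between animals. The memory arrays are in the fit, so that a genotype difference between them enters the p-values too. It depended on single arrays. No gene passed in either direction without the activated control array, without the regulatory control array or without the regulatory Furin cKO array, although between 2287 and 2340 genes higher and between 3498 and 3935 lower had an unadjusted p under 0.05. Without the activated Furin cKO array, 688 genes passed higher and 1106 lower. Of the called genes, 2195 had further measured probe sets, and in 545 at least 1 of these pointed the other way. In 121 of them another probe set was past 2-fold the other way in both pairs. Among the genes named below that holds for Bcl2l11, Rgs16 and Tubb6. Another probe set pointed the other way, short of 2-fold in both pairs, in Bach2, Eif4e, Fosl2, Hsd17b7, Hspa9, Hyou1, Irf4, Kif2c, Mcm10, Nr4a2, Nt5e, Rps24, Sdc1, Slc7a1 and Xbp1. Adjusted p-values quoted for single genes come from the fit with all 6 arrays.

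The balance of higher and lower calls depended on how the arrays were scaled. With the deposited scaling 40.1% of the called genes were higher in activated cells. After quantile normalization 2185 were higher and 1718 lower (56.0% higher), and after cyclic loess 2354 and 1762 (57.2%). A lower floor, at the 20th percentile, gave 1841 and 4369 (29.6%). Quantile normalization moved the median of all measured genes from -0.34 to 0.06 and cyclic loess to 0.09. No statement on which direction prevails is therefore made. Quantile normalization kept 91.8% of the genes called higher and 62.6% of those called lower, and cyclic loess 98.5% and 66.7%. Among the 44 gene lists, 40 kept the sign of their median in 8 alternatives, and the exceptions were ER folding, the BCL2 family, lysosome and autophagy, and the convertases.

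**Figure D3:**
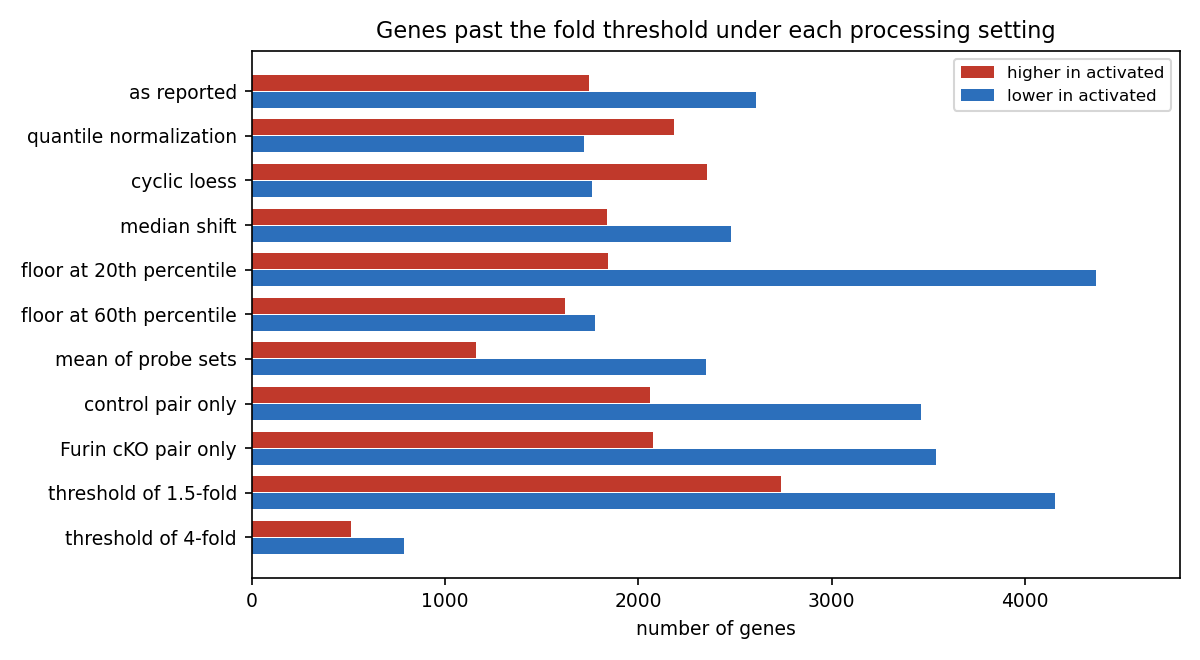
Number of genes (x axis) at least 2-fold higher (red) and lower (blue) in activated cells in both genotypes, for the values as reported and each alternative; the last 4 settings use 1 pair or another fold threshold. Lower calls outnumber higher calls as reported, 2609 against 1746, and the order turns after quantile normalization and cyclic loess.

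The genes with the largest differences upward included metabolic enzymes, cell cycle genes and activation factors. The cyclin-dependent kinase inhibitor gene Cdkn1a read 8879 and 8979 in activated cells and 164 and 326 in regulatory cells, 54.0-fold and 27.5-fold higher in the 2 pairs. Bcat1, the cytosolic enzyme that transaminates branched-chain amino acids, read 6509.6 and 6295 against 212 and 219. The polo-like kinase gene Plk2 read 2238 and 2549 against 77.1 and 56.8. All 3 genes separated the populations without overlap (adjusted p between 0.0018 and 0.0022). They were picked for large differences in both pairs, so the gap and the p-values follow from the choice. The same holds for the leading members of each list below, whose lack of overlap is a description only. Gja1, the gap junction protein connexin 43, was 33.7-fold and 29.9-fold higher, and the fatty acid desaturase Fads2 43.2-fold and 22.8-fold. Genes with both regulatory arrays below the floor allow only bounds. Hacd1, an enzyme of very long chain fatty acid elongation, read 2984 and 2930.5 against 5.3 and 3.4 and was at least 62.7-fold and 61.6-fold higher. The long chain acyl-CoA synthetase Acsl6 was at least 23-fold and 20.4-fold higher, and the chromatin reader gene Spin4 at least 29.0-fold and 25.2-fold. The alcohol dehydrogenase gene Adh4 read 1270.1 and 1677 against 11.6 and 8.2. Tal2, a basic helix-loop-helix factor, read 1451 and 1353 against 6.3 and 23.3.

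Downward, the largest differences included a calcium-binding protein, transcription factors and interferon-induced genes. S100a4, a calcium-binding protein of motile cells, read 19.7 and 22.1 in activated cells and 11252 and 11715 in regulatory cells, at least 236-fold and 246-fold lower. Klf2, the transcription factor that holds T cells in quiescence and keeps their exit receptors on, read 61.0 and 54.6 against 4234 and 3929.8, 69.4-fold and 72.0-fold lower. Maf, a transcription factor of differentiated helper and regulatory cells, read 20.5 and 16 against 5764 and 8122, at least 121-fold and 171-fold lower. In these 3 genes the activated signal was near or below the floor and the memory arrays were about as bright as the regulatory ones or brighter. S100a4 read 13169 and 17493 in memory cells, Klf2 4249 and 6029 and Maf 6188 and 6916. The lymphotoxin beta gene Ltb read 904 and 929.6 against 26949 and 27158, 29.8-fold and 29.2-fold lower. Ifi209 and Ifi213, interferon-inducible genes of the PYHIN family, were 66.3-fold and 96.2-fold lower and at least 84.0-fold and 98.9-fold lower. The immunoglobulin alpha heavy chain gene Igha, a product of plasma cells, was also among the largest, at 39.3 and 9.5 against 13170.1 and 5947. It is taken up with the markers of other cell types.

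**Figure D4:**
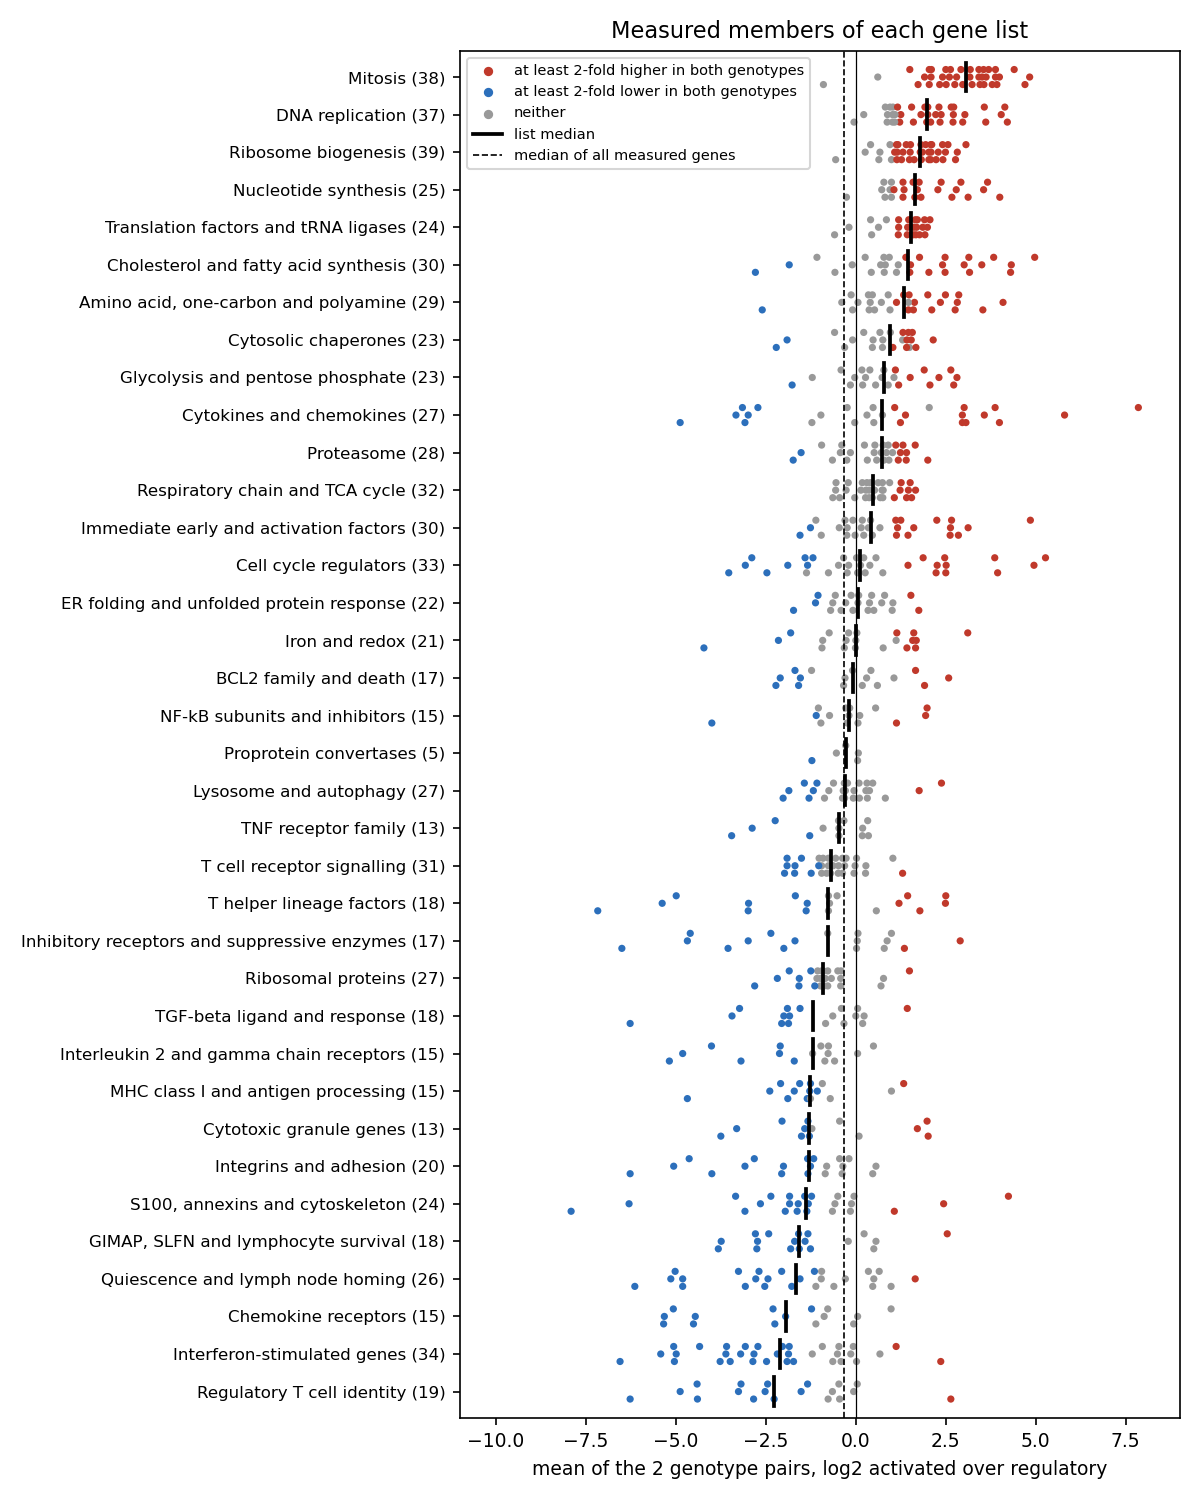
Each point is 1 measured gene of a list, placed by the mean of its 2 genotype pairs (x axis, log2 activated over regulatory); the number of genes is in parentheses, the bar is the list median and the dashed line the median of all measured genes. Among these 36 lists of T cell genes and programmes, mitosis has the highest median at 3.07 and regulatory T cell identity the lowest at -2.27.

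Genes of cell division were higher in activated cells almost without exception. In the mitosis list 36 of 38 measured members were called higher and 0 lower, against 14.0% of all measured genes called higher, and the median log2 difference was 3.07. Cdca8, a subunit of the chromosomal passenger complex, read 11198 and 11073 in activated cells and 540.4 and 1001 in regulatory cells. The spindle kinase gene Aurka read 2774 and 2604 against 145 and 231, and Ect2, which drives the last cut between daughter cells, 4158 and 4183 against 119 and 218. For each, the lowest activated array stood above the highest regulatory array. Kif2c, a kinesin that takes microtubules apart, was 39.6-fold and 20.5-fold higher. The members not called were Racgap1, at 856 and 946 against 464 and 746, and Smc4, at 9883 and 9376 against 17884 and 18094. Smc4, a condensin subunit, was lower in activated cells by less than 2-fold (adjusted p = 0.014), while its partner Smc2 was higher at 7542 and 7586 against 1138 and 1782.

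DNA replication genes followed. Of 37 measured, 26 were called higher and 0 lower, with a median of 1.97, and 35 passed the limma test upward. Fen1, the nuclease that trims Okazaki fragments, read 12759.5 and 12855 in activated cells and 816 and 648 in regulatory cells, 15.6-fold and 19.8-fold higher. The replication licensing factor gene Cdc6 read 4770.5 and 4499 against 124 and 503, and Cdc45, a part of the replicative helicase, 2253 and 2166 against 186 and 176. Both regulatory arrays were low for these genes, and in Cdc6 the Furin cKO array was the brighter of them. Mcm10, which helps to fire origins, was 23.4-fold and 11.5-fold higher, although its other 2 probe sets pointed the other way and the mean over probe sets kept no call. Other members were under 2-fold apart in at least 1 pair. The sliding clamp gene Pcna read 20736 and 21711 against 9899.7 and 13518, under 2-fold in the Furin cKO pair, and Rpa1, which coats single-stranded DNA, 16143 and 16363 against 8348 and 8495.

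The promoters of the replication genes held the E2F word more often than promoters at large. E2F transcription factors switch on genes of the S phase, and their core word was searched on both strands as TTTCCCGC, TTTGGCGC, TTTCGCGC or TTTGCCGC. Promoters came from RefSeq on the GRCm38.p6 build, from 250 bases before to 50 after the start of each gene, and were found for 10087 of the 12466 measured genes (80.9%). A word was present in 15 of 30 replication promoters, 4.61% of all promoters, 6.88% of those called higher and 3.22% of those called lower. Among mitosis genes it was present in 3 of 33 (9.09%), where the CCAAT box, searched as CCAAT, was found in 26 of 33 (78.8%) against 42.4% of all promoters. None of the E2F words contains CCAAT. Of the genes with an E2F word 21.1% were called higher, and 13.8% of those without. A match is a string of letters and not a binding site shown in these cells. The promoters of 4 replication genes are printed around their word, which is in capitals, because their genes separated the populations in both pairs. The stretch of Cdc6 is chr11:98907987-98908046 on the plus strand. That of Pola1, the catalytic subunit of the primase-polymerase, is chrX:93632260-93632319 on the minus strand. Orc1, an origin recognition subunit, is shown at chr4:108579401-108579453 and Uhrf1, which maintains DNA methylation behind the fork, at chr17:56304102-56304161, both on the plus strand.
Cdc6: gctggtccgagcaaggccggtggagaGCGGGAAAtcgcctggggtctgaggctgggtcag
Pola1: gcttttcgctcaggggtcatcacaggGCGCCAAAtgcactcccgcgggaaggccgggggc
Orc1: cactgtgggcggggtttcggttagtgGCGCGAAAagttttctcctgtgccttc
Uhrf1: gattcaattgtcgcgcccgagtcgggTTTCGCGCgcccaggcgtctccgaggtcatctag
The word ends 130 bases before the start in Cdc6 and Pola1, 19 in Orc1 and 177 in Uhrf1. Their genes were all called higher. Pola1 read 2657 and 2427 in activated cells and 346 and 280.4 in regulatory cells, Orc1 905 and 842 against 40.3 and 114, and Uhrf1 5054 and 4582 against 507 and 1082. The lower of the activated arrays exceeded the higher of the regulatory arrays in each.

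Regulators of the cycle went both ways. The list of 33 measured genes had 11 called higher, 8 lower and a median of 0.13, the lower share being near that of all genes. Ccne1 and Ccne2, the cyclins E, read 6268 and 5634 against 398 and 421 for Ccne1 and 2449.9 and 2895 against 109.8 and 272 for Ccne2. E2f8, an atypical E2F that represses, was 45.5-fold and 21.1-fold higher. The G1 cyclin gene Ccnd2 was not called, at 10817 and 11107 against 12840.1 and 13130.2. Rbl2, the retinoblastoma relative p130, was lower, at 578 and 527 in activated cells and 4018 and 4166 in regulatory cells. Mxd4, a MAX partner that opposes MYC, read 259 and 291 against 3509 and 2876. The cyclin-dependent kinase inhibitors split: Cdkn1b, which encodes p27, read 488 and 443 against 3071 and 4959, the reverse of Cdkn1a. Myc itself read 4657 and 4957 against 1828 and 1692 (adjusted p = 0.0048).

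Genes that make nucleotides were higher, 18 of 25 called and 0 called lower, with a median of 1.64. The ribonucleotide reductase subunit gene Rrm1 read 14177 and 12659 in activated cells and 720.0 and 977 in regulatory cells. Ctps, which makes CTP and is required for the expansion of lymphocytes, read 8164 and 7738 against 689.8 and 672, 11.8-fold and 11.5-fold higher, and Umps, the last step to UMP, 4339 and 3749.7 against 435 and 496. None of these 3 genes had overlapping populations. Adss, an enzyme of AMP synthesis, was bright in both at 6743 and 6462 against 8052 and 7784.

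The machinery that builds ribosomes was higher and the transcripts of the ribosomal proteins were not. Ribosome biogenesis genes numbered 39 measured, 32 called higher and 0 lower, with a median of 1.79. Nop58, a core protein of the box C/D particles that methylate rRNA, read 6342 and 5361 in activated cells and 675 and 724 in regulatory cells. Utp20, of the small subunit processome, read 4242 and 3949 against 559 and 604, and Rrs1, of the large subunit, 9134 and 9026 against 1572 and 1654. In all 3 the activated arrays were at least 4-fold above the regulatory arrays. Nucleolin and nucleophosmin, abundant nucleolar proteins, were under 2-fold apart. Ncl read 18028 and 18674 against 14733 and 12962, and Npm1 read 21152 and 22464 against 18129.9 and 18336. Among 27 ribosomal protein and elongation factor genes, 1 was called higher and 7 lower, and the median was -0.90. The lower share of 25.9% was near the 20.9% of all measured genes. Rpl37 read 1144 and 1329 against 5636 and 5553, Rps15 8384 and 9506 against 33614 and 30729.7 and Rps24 12848 and 13974 against 39757 and 40154. The activated arrays were the low ones in all 3, and on the memory arrays Rps15 was above the regulatory arrays, at 64570.2 and 54399. This median depended on the processing and ran from -1.0 to -0.06 over the alternatives, so that the distance of the list from the genome median of each setting, -0.56 as reported, shrank to -0.11 at the least. The exception, Rps25, was 2.88-fold and 2.73-fold higher in activated cells.

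Translation factors and tRNA ligases were higher, with 18 of 24 called, 0 called lower and a median of 1.53. Eif3b, a scaffold of initiation factor 3, read 6936 and 7129.9 in activated cells and 1889.9 and 1666 in regulatory cells. The start codon scanning factor Eif1a read 3611 and 4062 against 1056 and 979, and the isoleucyl tRNA ligase gene Iars 4641 and 4175 against 1159.6 and 1169. Eif4e, the cap-binding factor, read 8953 and 9668 against 3447 and 3289 (adjusted p = 0.0048). The populations did not overlap in these genes, although 1 of 3 other probe sets of Eif4e pointed the other way. Eif4a1, the helicase of the cap complex, went the other way without a call, at 8936 and 9793 against 14386 and 13803.

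The promoters of genes for ribosome assembly and nucleotide synthesis were searched for the E-box CACGTG, a word that MYC and related factors recognise. It was present in 9 of 34 ribosome biogenesis promoters (26.5%) and 6 of 23 nucleotide synthesis promoters (26.1%), against 11.4% of all promoters, 13% of those called higher and 9.85% of those called lower. The CRE word TGACGTCA, bound by CREB and ATF factors, was in 4.70% of the promoters called higher and 2.44% of those called lower.

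Metabolic genes were higher in part, and the transporters among them went both ways. Of 23 glycolysis and pentose phosphate genes 9 were called higher and 1 lower (median 0.78). Slc16a1, the lactate exporter MCT1, read 9992 and 9839 in activated cells and 1488 and 1342 in regulatory cells. Pgd, an NADPH-producing enzyme of the pentose phosphate pathway, read 10671 and 9687 against 1606 and 1651, and Hk2, the inducible hexokinase, 2675 and 1739 against 328 and 326. Slc2a3, the glucose transporter GLUT3, was lower at 2337 and 2336 against 8046 and 7895, while Slc2a1, which encodes GLUT1, read 2186 and 2246 against 1427 and 1164, higher on both activated arrays by less than 2-fold. Lactate dehydrogenase, Ldha, was bright in both populations at 21657 and 21808 against 11383 and 11959.6.

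Amino acid and one-carbon genes had 15 of 29 called higher and 1 lower (median 1.33). The folate enzyme gene Mthfd1 read 10770.3 and 10932 in activated cells and 681 and 597 in regulatory cells, 15.8-fold and 18.3-fold higher. Shmt1, which moves a carbon from serine to folate, read 4505 and 3931 against 390.0 and 339.9, and the asparagine synthetase gene Asns 2348 and 1643 against 279.5 and 262. Both populations were internally close in these genes, and no arrays overlapped. The arginine transporter Slc7a1 read 11748 and 11065 against 1766 and 1478, a call not kept by the mean of its probe sets. Ddit3, the stress factor CHOP, was the member called lower, at 171 and 229 against 1300.4 and 1109.9, although Atf4, the factor above it in the stress response, read 8601 and 7816 against 3055 and 2832.

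Synthesis of cholesterol and fatty acids stood with 16 of 30 called higher and 2 lower (median 1.44). Idi1, which isomerises the isoprene unit, read 11348 and 11508 in activated cells and 851 and 764 in regulatory cells. Lss, the enzyme that closes the sterol rings, read 3473 and 2564 against 139.8 and 164, and Hsd17b7, a later step, 1718 and 1435 against 153 and 125. Each was higher on both activated arrays by a factor of more than 8. The members called lower were the exporters. Abcg1 read 429 and 376 against 2730.0 and 2830.1 and Abca1 390.0 and 304 against 1318 and 1164, and both move sterol out of the cell.

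The respiratory chain and citrate cycle showed smaller differences, with 8 of 32 called higher, 0 lower and a median of 0.49. Sdhd, a membrane anchor of complex II, read 8806 and 8027 in activated cells and 2676 and 2662 in regulatory cells. The fumarase gene Fh1 read 6171 and 8069 against 2447 and 2499, and Ndufb6, of complex I, 9493 and 8899 against 3339.6 and 3358. Of 32 members, 22 were among the genes bright in both populations that are described further on. Cox4i1 and Cox6a1, of complex IV, were a little lower in activated cells. Cox4i1 read 9272 and 10085 against 14312 and 14227 and Cox6a1 11798 and 12923 against 18186 and 20336.

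Genes of protein folding and turnover were called higher in part, and called lower less often than genes at large. The lower shares were 8.70% for chaperones, 13.6% for the endoplasmic reticulum and 7.14% for the proteasome, against 20.9% of all measured genes. The higher shares were 39.1%, 9.09% and 28.6%, against 14.0%. In the cytosol and mitochondria 9 of 23 chaperone genes were called higher and 2 lower (median 0.96). The mitochondrial Hspa9 read 12153 and 12934 in activated cells and 2877 and 2759.5 in regulatory cells, and Tcp1, of the chaperonin ring, 17299.5 and 17278 against 5904 and 7058. Hspb1, a small heat shock protein, and Bag3, a co-chaperone, were lower. Hspb1 read 65.1 and 122 against 274 and 619 and Bag3 98.4 and 61.4 against 256 and 333. Genes of the endoplasmic reticulum had 2 called higher, 3 lower and a median of 0.07, whose sign changed in 3 of 8 alternatives. Hyou1, a chaperone of this compartment, was higher at 2791 and 3396 against 815 and 1032. The stress-response factor gene Xbp1 was lower at 3830.5 and 3879 against 8118 and 7888, and Dnajc3 was lower at 671 and 884 against 2519 and 2605. The calls of Hyou1 and Xbp1 were not kept by the mean over their probe sets. For the proteasome, 8 of 28 were called higher and 2 lower (median 0.73). Psmd14, a deubiquitinating subunit of the lid, read 14521 and 14281 against 5592 and 5360.2, and Psmc2, an ATPase of the base, 16287 and 14514 against 4765 and 5010.4. The members called lower belong to the immunoproteasome, the form induced by interferon-gamma. Psmb10 read 1631 and 1760.5 against 6068 and 5294 and Psmb8 4761 and 4979 against 15336 and 12729.6, the latter a call not kept by the mean of its probe sets.

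Iron and redox genes had a median of 0.00, with 7 of 21 called higher and 3 lower. Besides Tfrc, which takes up iron, thioredoxin was higher, with Txn1 at 18594 and 20789 in activated cells and 7240.2 and 7475 in regulatory cells. The iron exporter ferroportin, Slc40a1, read 1.6 and 0.8 against 248 and 179, below the floor in culture. Heavy chain ferritin, Fth1, read 8786 and 9239.8 against 17466 and 17164, lower on both activated arrays by less than 2-fold (adjusted p = 0.012).

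Transcription factors of activation were higher in part. The list of 30 immediate early genes had 13 called higher, 2 lower and a median of 0.43. The orphan nuclear receptor gene Nr4a2 read 5032 and 6524 in activated cells and 216 and 183 in regulatory cells, 23.3-fold and 35.7-fold higher, and Nr4a3 read 9697 and 9791 against 1403 and 1297. Fosl1, an AP-1 subunit, read 384 and 445 against 26.2 and 15.7, at least 8.07-fold and 9.34-fold higher. Nr4a2 and Fosl1 were dim or below the floor on the regulatory arrays, and Nr4a3 was not. The calls of Nr4a3 and Fosl2 were not kept by the mean over their probe sets. Egr1, Junb, Dusp1 and Nfkbia were not called. Egr1, an early growth response factor, read 5037 and 4864 against 4024 and 4931, and Nfkbia, which holds NF-kB in the cytoplasm, 21597 and 22147 against 25918 and 25680.1. Zfp36, which destabilises cytokine transcripts, was lower at 881 and 832 against 2558 and 2474. Of the NF-kB genes, Rel was higher at 1598 and 1867 against 442 and 457, and Nfkb2 at 3934 and 4008 against 1060.1 and 955. Bcl3, a nuclear cofactor of NF-kB, was lower at 45.9 and 60.6 against 992 and 743, and Relb lower at 645 and 545 against 1347 and 1199.9, a call that quantile normalization, cyclic loess and the median shift did not keep.

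The antigen receptor complex itself was lower. Cd3d read 6932 and 6852 in activated cells and 25987 and 25839.9 in regulatory cells, Cd3e 1599.8 and 1309.7 against 6552 and 4974 and Cd3g 5133 and 5167 against 16532 and 16904, and each was between 3-fold and 5-fold lower in both pairs. These genes encode the signalling chains beside the receptor, and the memory arrays were above the regulatory arrays in all 3. Downstream kinases and adaptors differed less. Over the list of 31 receptor signalling genes, 8 were called lower and 1 higher (median -0.70). The lower share of 25.8% was near the 20.9% of all measured genes. The kinase gene Zap70 read 4032 and 3440.5 against 3863 and 3844 and the adaptor gene Lcp2 8011 and 8821 against 8559 and 8520.4, both with overlapping populations. The diacylglycerol kinase Dgka, a brake on this pathway, was lower at 3769 and 3589.8 against 14016 and 13697. Ptpn6, the phosphatase SHP-1, was the member called higher, at 7217 and 6942 against 2705 and 3041, a call that quantile normalization and the mean over probe sets did not keep.

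Cytokine genes spread further than those of any other list, with Il2 at the top. Il2, the growth factor of T cells, read 10455 and 12875 in activated cells and 29.2 and 53.3 in regulatory cells, at least 219.6-fold higher in the control pair and 242-fold in the Furin cKO pair (adjusted p = 0.002). It was below the floor or just above it on the regulatory arrays and read 424 and 1465 in memory cells. Of 27 measured cytokine and chemokine genes 12 were called higher and 6 lower, with a median of 0.74. The lower share of 22.2% was near the 20.9% of all measured genes, and the higher share was 44.4% against 14.0%. The chemokine gene Ccl3 read 2649 and 5902 against 98.5 and 50.9. Csf2, which encodes GM-CSF, read 562 and 1163 against 54.3 and 6.5, and Tnfsf4, the ligand of OX40, 1969.7 and 2136 against 102 and 192. Tnfsf11, the RANK ligand gene, read 9758 and 9565 against 1372 and 1125. In each the activated arrays were the high ones, in Ccl3 and Csf2 with the Furin cKO array on top. Others were lower. Il10, a suppressive cytokine of regulatory cells, read 31.0 and 19.7 against 350.4 and 409, and the interferon-induced chemokine gene Cxcl10 39.2 and 36.7 against 427 and 418. Ccl5, made by effector cells, read 187 and 455 against 2455 and 2489, far under the memory arrays at 17869 and 34172. Ifng differed between genotypes and is given with them.

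Cytotoxic genes were mostly lower in culture at this time, with 7 of 13 called lower and 3 higher (median -1.29). Prf1, which encodes perforin, read 52.3 and 48.3 in activated cells and 196 and 221 in regulatory cells, a call not kept after quantile normalization or with the floor at the 60th percentile. Gzma, granzyme A, read 15.9 and 15.7 against 406 and 549, and Ctsw, a cathepsin of killer cells, 13 and 74.5 against 724 and 891. The activated arrays were at or near the floor. Granzyme B, Gzmb, was measured in both, at 675 and 1280.2 against 1926 and 2444 (adjusted p = 0.081). The protease inhibitor genes Serpinb9 and Serpinb6b were higher. Serpinb9 read 2959.7 and 4527 against 1142 and 1093 and Serpinb6b 2634 and 4107 against 769.7 and 862. The remaining member called higher was Nkg7, a gene of the granules themselves, whose values are given with the genotypes.

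Helper lineage factors showed a clear split. Irf4, a factor whose level follows the strength of stimulation, read 10011 and 9383 in activated cells and 1716 and 1719 in regulatory cells, and Bhlhe40, which promotes cytokine production, 4143 and 4765 against 794 and 793. The type 1 factor gene Tbx21 was also higher, at 1208 and 2140.0 against 445 and 493. Against these, Prdm1, which encodes the repressor Blimp-1 of effector cells, read 26.4 and 18.5 against 2008 and 1969, at least 42.2-fold and 41.4-fold lower. Gata3 read 305 and 252 against 2329 and 2038, and Ikzf3, which encodes Aiolos, 146 and 134 against 4577 and 4272. Over the list, 8 of 18 were called lower and 5 higher (median -0.76).

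Genes of regulatory identity were lower in activated cells. Of 19 measured, 12 were called lower and 1 higher, with the lowest median of the 44 lists but the granulocyte markers, -2.27. Itgae, the CD103 integrin chain, read 20.2 and 32.6 in activated cells and 3328 and 4051 in regulatory cells, at least 69.9-fold and 85.1-fold lower. Ecm1, an extracellular matrix protein, read 150.5 and 153 against 2978 and 3432, and Dst, a cytoskeletal linker, 4.4 and 25.6 against 994 and 1035. Socs2, a feedback inhibitor of cytokine receptors, read 344 and 447 against 3603 and 3579.9. None of these genes overlapped. The memory arrays were above both activated arrays and below both regulatory arrays in each of them. In memory cells Itgae read 2287 and 1069, Ecm1 578.5 and 822, Dst 508 and 409.8 and Socs2 2246 and 2050.2. The chemokine receptor gene Ccr8 overlapped at 253 and 229 against 274 and 229, and Rgs16 was the member called higher at 2363 and 3206 against 398 and 491, with another probe set of the gene called lower.

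Inhibitory receptors and enzymes went both ways. Nt5e, the ectonucleotidase CD73 that makes adenosine, read 56.6 and 38.5 in activated cells and 4059 and 5464 in regulatory cells, and Entpd1, its partner CD39, 32.3 and 31.2 against 582 and 532. Fgl2, a secreted suppressive protein, read 10.9 and 1.5 against 1165 and 1273, and Cd200r1 2.2 and 21.0 against 1112 and 1198. The activated arrays were below the floor, or in Nt5e's control array just above it, in all 4. Signal in these genes was not particular to the regulatory arrays. On the memory arrays Nt5e read 3669.9 and 1868, Entpd1 580.5 and 496, Fgl2 1403 and 1746 and Cd200r1 446 and 556. Lag3 was lower at 242 and 200.3 against 807 and 622. In the other direction, the ligand gene Cd200 read 10457 and 9224 against 1272 and 1369.6, and the receptor gene Btla 15271 and 16224 against 6426 and 5915. The PD-1 gene Pdcd1 and its ligand Cd274 were higher on both activated arrays, without reaching 2-fold in both pairs. Pdcd1 read 2679 and 3129.5 against 1416 and 1509 and Cd274 3312 and 2566 against 1772 and 1427. The list of 17 had 8 called lower, 2 higher and a median of -0.78. The higher share of 11.8% was near the 14.0% of all measured genes.

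In the TNF receptor family 0 of 13 genes were called higher and 4 lower (median -0.47). The lower share was 30.8%, against 20.9% of all measured genes. Cd27, a co-stimulatory receptor of resting cells, read 523 and 624 in activated cells and 6727 and 5795 in regulatory cells, and Tnfrsf1b, a TNF receptor abundant on regulatory cells, 768 and 532 against 4509.9 and 4936. Tnfrsf25 read 438 and 451 against 2135 and 2067. The inducible co-stimulator Icos was under 2-fold apart at 11188 and 10972 against 8887 and 10549, while both of its other probe sets were called lower. Tnfrsf9, the 4-1BB gene, was under 2-fold apart at 3289 and 3555 against 4598 and 4004. Cd28 was brighter on the regulatory arrays by less than 2-fold, at 4646 and 5123 against 6862 and 6721.

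Transcripts of interleukin 2 and gamma chain receptors and their signalling partners were lower in part. Of 15 genes, 7 were called lower and 0 higher (median -1.20). Il2rb, the shared beta chain, read 508 and 389 in activated cells and 7489.5 and 6842 in regulatory cells, and the kinase gene Jak1 2301 and 2135 against 9578 and 9398. The feedback inhibitor Socs3 read 95.4 and 109 against 4170.4 and 3306, 43.7-fold and 30.2-fold lower. Stat5b, the factor they act through, read 961 and 1029.5 against 3301 and 3189. The ligand gene Il2 and its receptor chain Il2rb stood in opposite order between the populations.

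The TGF-beta pathway was examined because Furin cuts the TGF-beta precursor. Of 18 measured genes, 9 were called lower in activated cells and 1 higher, with a median of -1.20 that ran from -1.69 to -0.45 over the alternatives. The cytokine gene Tgfb1 read 482 and 494 in activated cells and 1979.7 and 1919.5 in regulatory cells. Its receptor genes read 984 and 989.8 against 3446 and 3932 (Tgfbr1) and 1419 and 1451 against 5976 and 6004 (Tgfbr2). Smad3, which carries the signal to the nucleus, read 213 and 214 against 2244 and 1776, while Smad2 read 1508 and 1574 against 1339.8 and 1283 and Smad4 3113 and 3028 against 2867 and 2525. In Tgfb1, Tgfbr1, Tgfbr2 and Smad3 both activated arrays were low, in each genotype alike. The co-receptor gene Tgfbr3 was called higher, at 1264 and 1202 against 509 and 409, which the mean of its probe sets did not keep. The convertase genes gave no such pattern. Furin was level, with log2 differences of -0.09 in the control pair and 0.19 in the Furin cKO pair. Pcsk7 read 587 and 649.7 against 910.4 and 887. Of 5 measured, 1, Pcsk4, was called lower at 65.7 and 79.8 against 149.6 and 191. That call was lost after quantile normalization, after cyclic loess and at a floor of the 60th percentile.

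Genes of quiescence and of exit from lymph nodes were lower, 15 of 26 called and 1 called higher, with a median of -1.67. Besides Klf2, its target S1pr1, the receptor that lets T cells leave lymph nodes, read 86.2 and 91.3 in activated cells and 2679.7 and 2318 in regulatory cells. Rasgrp2, an activator of integrin adhesion, read 38.4 and 26.5 against 1461 and 1926, and Tsc22d3, a glucocorticoid-induced repressor, 121 and 97.7 against 2919.8 and 4243. Foxo1, the factor above Klf2 and Il7r, read 1068 and 876 against 4505 and 3636. The regulatory and memory arrays were alike in these genes to within a factor of 4. Ccr7, which draws naive cells into lymph nodes, did not follow, at 6369.9 and 8502 against 4117 and 3374, and Lef1 read 2791 and 2093 against 4788 and 4603. Bach2, a repressor of effector genes, was the member called higher, at 6158 and 6192 against 2136 and 1800.3.

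Receptors for migration and adhesion were lower as well. Of 15 chemokine receptors 9 were called lower and 0 higher (median -1.95). Cxcr3 read 230.0 and 257 in activated cells and 8834 and 7545 in regulatory cells, and 21121 and 27796 in memory cells. Ccr2 read 24.5 and 12.9 against 1794 and 2067 and Cxcr4 33.6 and 40.5 against 1303 and 2767, each below the floor on both activated arrays. Of 20 integrin and adhesion genes 12 were called lower and 0 higher (median -1.30). The alpha 4 integrin gene Itga4 read 244 and 276 against 8562 and 8728, 35.1-fold and 31.6-fold lower. Itgb8, an integrin chain that releases active TGF-beta, read 27.7 and 41.0 against 1038 and 1331, and Ly6e 1130.2 and 1602 against 23777 and 19464. By contrast Cd44, a sort marker of naive against memory cells, read 5916 and 7146 against 4574 and 4229.5 (adjusted p = 0.082).

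Small calcium-binding proteins, annexins and cytoskeletal genes were lower in 15 of 24 cases and higher in 3 (median -1.39). After S100a4 came S100a6, at 61.6 and 131 in activated cells and 7031 and 7121 in regulatory cells and S100a13 at 322 and 417 against 3495 and 3946. Annexin A1, Anxa1, read 62.3 and 67.1 against 359 and 462. Tubb6, a beta tubulin, and Stmn1, which destabilises microtubules, were called higher. Stmn1 read 17303 and 16222 against 2287 and 4189 and Tubb6 859 and 937 against 16.4 and 28.2, but the other probe set of Tubb6 was called lower, and the gene turned to lower when the floor was the 20th percentile. GIMAP and Schlafen genes, GTPases and helicases of lymphocytes, were lower in 13 of 18 and higher in 1 (median -1.58). Gimap6 read 1189.7 and 1357 against 17245 and 16632 and Gimap7 759 and 1165 against 12480.5 and 14130.2. Slfn8 read 422 and 399 against 2918 and 2769, and Slfn3 was the exception at 339.8 and 307 against 64.4 and 43.6.

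Interferon-stimulated genes were much lower on the activated arrays. Of 34 measured, 22 were called lower and 2 higher, against 20.9% of all measured genes called lower, and the median of -2.11 stayed between -2.47 and -1.81 over the alternatives. Ifit3, which binds viral RNA complexes, read 59.7 and 38.4 in activated cells and 2538 and 2061 in regulatory cells, and Ifit1 56.9 and 32.5 against 1569.5 and 1911. Irf7, the master factor of the interferon response, read 72.3 and 49.9 against 1849 and 1982, 25.6-fold and 39.7-fold lower. Rtp4 read 76.7 and 2.5 against 5669.5 and 5654, 73.9-fold lower in the control pair and at least 119-fold in the Furin cKO pair, and Usp18, the negative regulator of the receptor, 196 and 130.5 against 3468 and 3024. In each of these genes the regulatory arrays were more than 16-fold brighter, and the genotypes agreed. Memory cells were nearer to regulatory cells, with Irf7 at 2529 and 1829 and Usp18 at 1062 and 782. Ifih1, a sensor of double-stranded RNA, was higher at 9063 and 8886 against 1949 and 1561, and Gbp2, a GTPase induced by interferon-gamma, at 11659 and 14181 against 5812 and 5988, a call that cyclic loess did not keep. The interferon-gamma-inducible GTPase genes Igtp, Irgm2 and Iigp1 were bright on all 4 arrays and under 2-fold apart.

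The promoters of these genes were searched for the core of the interferon-stimulated response element, the site of the IRF and STAT complex, as GAAANNGAA on both strands. This word was added after the values had been seen. It was present in 15 of 24 promoters of the list (62.5%), 8.47% of all promoters, 7.44% of those called higher and 8.98% of those called lower. The promoters of 4 are printed around a match, with every match in capitals, because their genes were called lower by wide margins. Ifit3 is shown at chr19:34583401-34583461 and Ifit1 at chr19:34640779-34640839, both on the plus strand. Rsad2, an enzyme that makes a chain-terminating nucleotide, is at chr12:26456537-26456597 and Oas1a, which makes the activator of RNase L, at chr5:120907526-120907565, both on the minus strand.
Ifit3: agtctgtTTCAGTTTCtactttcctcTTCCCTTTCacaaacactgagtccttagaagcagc
Ifit1: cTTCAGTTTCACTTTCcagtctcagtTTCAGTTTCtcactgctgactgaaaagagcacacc
Rsad2: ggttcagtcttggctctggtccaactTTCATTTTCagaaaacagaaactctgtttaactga
Oas1a: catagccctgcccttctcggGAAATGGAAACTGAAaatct
The word overlaps itself in Ifit1 and Oas1a. Rsad2 read 115 and 68.1 in activated cells and 1013 and 1165 in regulatory cells and Oas1a 349 and 486 against 4039 and 3558, the activated arrays being the low ones in both.

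Antigen presentation was lower too, with 10 of 15 called lower and 1 higher (median -1.28). B2m, the light chain of MHC class I, read 14922 and 15460.3 in activated cells and 35736 and 37256 in regulatory cells, and the heavy chain gene H2-K1 17017 and 17350.3 against 44068 and 43562. Nlrc5, the factor that activates class I genes, read 2210.3 and 2726 against 8384 and 7683. All 3 were between 2-fold and 4-fold lower in both pairs, and the memory arrays were the brightest for B2m and H2-K1, B2m at 57166 and 60859 and H2-K1 at 80738 and 72453. The class II genes in the list, such as H2-Aa at 27.3 and 40.4 against 1166 and 1285, are markers of antigen-presenting cells. The peptide trimming enzyme gene Erap1 was called higher, at 3408 and 3366 against 1297 and 1396, which the mean over probe sets did not keep.

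Survival genes of the BCL2 family went both ways. Bcl2 read 769 and 686 in activated cells and 3348 and 2894 in regulatory cells, while Bcl2l1, which encodes BCL-XL, read 5859.7 and 5798 against 1007 and 938. Bmf, which promotes death, was lower at 48.7 and 63.3 against 236 and 283. Bcl2l11, coding for the death factor BIM, was called higher by its chosen probe set and pointed lower in its other 4, so that no direction is given. Mcl1 was bright in both at 9518 and 9761 against 12649.5 and 11201. Of 17 measured members 3 were called higher and 5 lower, around a median of -0.09 whose sign depended on the scaling. These shares were 17.6% and 29.4%, against 14.0% and 20.9% of all measured genes. The call of Bcl2l1 was not kept by the mean over its probe sets, and that of Bcl2 was kept under the other scalings and floors and by the mean over probe sets. Lysosome and autophagy genes had 6 of 27 called lower and 2 higher (median -0.29, with a sign that cyclic loess turned). The lower share of 22.2% was near the 20.9% of all measured genes. Sqstm1, the autophagy receptor p62, read 1083 and 1182 against 4587 and 4617, and the galactosidase gene Gla 934 and 952 against 180.3 and 181.

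Markers of other cell types were brighter on the regulatory arrays, and this moved with the lower calls. Of 78 such markers on the array, in 8 lists, 51 were below the floor on both activated arrays and 8 on both regulatory arrays, while 19 and 52 were above it on both. Probe sets at large differed in the same direction. Of all probe sets 49.4% and 49.8% reached the floor on activated arrays, and 65.8% and 67.4% on regulatory arrays. The signals of the 78 markers added up to 20608 and 19594 in activated cells, 63254 and 53915 in regulatory cells and 118811 and 96697 in memory cells. B cell markers summed to 2966 and 2898 against 19217 and 16897, myeloid and dendritic markers to 1962 and 1873 against 9369 and 9254, and granulocyte markers to 142 and 146 against 1699.6 and 3148. NK cell markers summed to 353 and 340.4 against 1178 and 1316, CD8 markers to 155 and 203 against 934 and 896, stromal and epithelial markers to 390.1 and 326 against 2668 and 2729, and erythroid markers to 237 and 106 against 647 and 507. The plasma cell list, at 14428 and 13709 against 27828 and 19520.1, also holds Irf4, Prdm1 and Xbp1, which T cells express. In each of the 8 lists both regulatory arrays were above both activated arrays.

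Most single markers named by the rule were brighter on the regulatory arrays. The B cell receptor gene Cd79b read 17.3 and 16.8 in activated cells and 819 and 855 in regulatory cells, and Ighm 2429 and 2306 against 16773 and 13928. The neutrophil gene S100a8 read 3.0 and 3.3 against 444 and 1032, the joining chain gene Jchain of secreted antibodies 18.5 and 36.5 against 2190.5 and 1315, and Tyrobp, an adaptor of myeloid and NK cells, 23.9 and 6.5 against 287 and 351. Of 9 measured plasma cell markers 5 were called lower and 2 higher, the latter being Irf4 and Sdc1, which encodes syndecan 1 and read 308 and 258 against 49.8 and 65.1. On the activated arrays the defining markers Cd79a, Cd79b, Lyz2, S100a8, S100a9 and Tyrobp were all below the floor. The MHC class II gene and S100 lists above hold some of these genes or their relatives, and interferon-stimulated genes are expressed by many cell types. Bulk arrays do not tell more cells of a type from more transcript per cell, and the part of other cells in the lower calls was not tested. Without all markers of other cells, 1744 genes were called higher and 2579 lower. With 78 such markers on the array these counts could change little, so they do not measure the part of other cells.

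**Figure D5:**
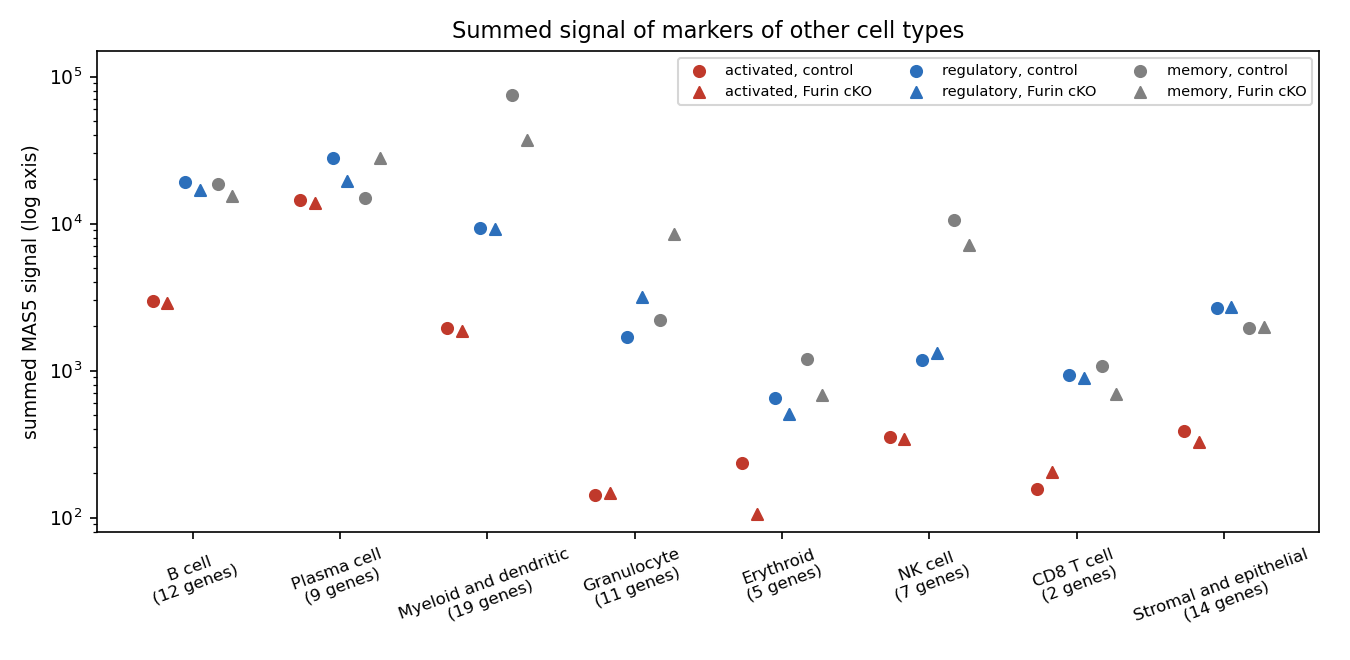
Summed MAS5 signal (log axis) of the markers of each of 8 other cell types on the 6 arrays, circles for control and triangles for Furin cKO. The activated arrays are lowest in every list, and the memory arrays are highest for myeloid and NK cell markers.

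Genes of many programmes were bright in both populations. Bright means a probe set signal of 2790.2 or more, the 90th percentile, a cut that depends on the probes as well as on abundance. By it 1043 of the 12466 measured genes were bright on all 4 arrays, and 756 of them differed by less than 2-fold in both pairs. Of these, 137 belong to the lists of T cell genes and programmes, among them 22 respiratory chain, 14 proteasome and 12 ribosomal protein genes, 10 of receptor signalling and 5 of the TNF receptor family. The lists of cytokines and chemokines, of chemokine receptors and of interleukin 2 and gamma chain receptors had 0 each. The closest in level included Cd5, a receptor that tunes antigen signalling, at 14649 and 15094 in activated cells and 15196 and 14214 in regulatory cells. Lcp2, Zap70, Msn and Birc3 were as close, and so were Glud1, Manf, Atp5o, Ctsd and Sec61b, genes of general cell function. This holds for the chosen probe sets. The other measured probe set had a mean log2 difference of -2.82 in Msn and -0.73 in Lcp2. It was -0.46 in Birc3, -0.49 in Atp5o and 0.51 in Glud1. Cd5, Manf, Ctsd and Sec61b had no other measured probe set. Only 16 of the 137 were above both memory arrays on all 4 arrays, and 1, Ctla4, by more than 2-fold. Tnfrsf4 and Tnfrsf18 followed, with the lowest of their 4 arrays 0.79 and 0.58 above the highest memory array on the log2 scale, against 1.63 for Ctla4.

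Over all measured genes, 24 had all 4 arrays at least 2-fold above both memory arrays, and this count and its genes were chosen after the values had been seen. Ctla4 had the widest gap, 3.09-fold between its lowest array and the highest memory array. Of the 24, 7 were called higher in activated cells, 0 lower, and 15 were within 2-fold in both pairs. Cnn3, the actin-binding calponin 3, read 5866 and 6416 in activated cells and 782 and 879.6 in regulatory cells, with memory cells at 139 and 272. The tetraspanin gene Cd81 read 9617 and 8512 against 4457 and 3939, and 1636 and 1679 in memory cells. Myb, a transcription factor of proliferating and regulatory lymphocytes, read 2552 and 2072 against 1982 and 2344, and 919.6 and 781 in memory cells. Crem, a cAMP-responsive factor that dampens Il2, read 1318 and 1465 against 1122 and 1524, and 487 and 549.5 in memory cells. For Myb and Crem the populations overlapped, whereas Cnn3 and Cd81 were higher in activated cells. Both other probe sets of Myb pointed the other way from the chosen one, 1 of them past 2-fold. The other measured probe set of Crem had a mean log2 difference of 1.48, and the chosen one 0.09.

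The genotype pairs differed in several gene lists although most genes agreed. The differences between the pairs were not tested, because each group has 1 array. In mitosis the control pair had a median of 3.31 and the Furin cKO pair 2.68, and 34 of 38 genes (89.5%) were closer together in the Furin cKO pair, against 51.3% of all measured genes. List members share the same arrays and are not replicates. The activated arrays were level and the regulatory Furin cKO array was the brighter of its pair. Mki67, for example, read 9774 and 10102 in activated cells and 1074 and 2396 in regulatory cells, and the mitotic kinase gene Aurkb 3159 and 2850.2 against 74.3 and 274. Of the replication genes 26 of 37 (70.3%) were closer in the Furin cKO pair, Cdc6 among them with log2 differences of 5.27 and 3.16. In memory cells Mki67 read 1259.9 and 5261, again brighter on the Furin cKO array.

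The shift was not particular to genes of division. Closer in the Furin cKO pair were also 24 of 27 ribosomal protein genes (88.9%) and 19 of 24 S100, annexin and cytoskeletal genes (79.2%). Endoplasmic reticulum genes had 15 of 22 closer (68.2%). Ribosome biogenesis genes went the other way, with 12 of 39 closer (30.8%). Of the chaperone genes 15 of 23 (65.2%) were closer in the Furin cKO pair. Hsph1, a heat shock protein of the cytosol, read 8337 and 8466 in activated cells and 1776 and 5036 in regulatory cells, a step within the regulatory pair alone. Single genes were wider apart in the Furin cKO pair. Ifng, the interferon-gamma gene, read 257 and 1695 against 164 and 157, which is 1 bright array among 4, and the limma contrast of the populations did not pass (adjusted p = 0.087). Nkg7, of cytotoxic granules, read 1499 and 4776 against 686 and 668. The immediate early gene Fos read 1389 and 1246 against 1427 and 478, level in the control pair and higher in the Furin cKO pair. The AP-1 partner Jun went in opposite directions in the pairs, at 347 and 477 against 814 and 209.5.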

How the data were processed

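Total RNA from activated naive, memory and regulatory T cells of 2 genotypes was labelled as biotinylated cRNA and hybridised to 6 expression arrays, 1 per group. The authors deposited linear intensity values (signals), summarised with MAS5 per the submitters' processing notes; each array's trimmed mean (2% at each end) is 500. No group holds a replicate, so the number of arrays limits precision, beside the floor, the scaling and the choice of probe set. Of 45101 probe sets, 34945 carry 1 gene symbol, 932 several and 9160 none. Where several probe sets share a symbol, the one brightest on average (log2, signals raised to the floor) stands for the gene. The population difference is the log2 ratio of activated over regulatory signal in each genotype. limma 3.58.1 (R 4.3.3) fitted population and genotype over 6 arrays with Benjamini-Hochberg adjustment over 15808 genes, and was tested on simulated data. The members, the 44 gene lists and the naming rule were chosen with earlier results of these data known. The rule names sort markers, the 12 largest differences and 6 largest bounds each way, in each list the 4 leading members and up to 2 opposite ones, and 12 genes high in both populations. Other genes were chosen after their values were seen. Tcf7 and Lck are not analysed here. Alternatives covered array scaling, floor, probe set choice, fold, single genotype pairs and arrays in the fit.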

Additional observations from a re-analysis of the deposited data

Results flagged for a closer look

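A gene is listed here when its 2 genotype pairs were at least 2-fold apart in opposite directions, which 8 of 12466 measured genes were. The difference between the pairs was not tested. Values are log2 activated over regulatory, first in the control pair and then in the Furin cKO pair.

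Ulk3, a kinase of autophagy and cytokinesis, had -2.11 and 1.07, a difference of 3.18. The chemokine gene Ccl1 had -1.02 and 2.02, 3.04 apart. Sox21, a transcription factor of the nervous system, had -1.08 and 1.86, 2.94 apart. Trim13, a ubiquitin ligase of the endoplasmic reticulum, had -1.32 and 1.48, 2.80 apart. The ribosomal protein paralog Rpl39l had -1.56 and 1.2, 2.76 apart. Jun, the AP-1 subunit, had -1.23 and 1.19, 2.42 apart. Pnmt, which makes adrenaline, had -1.26 and 1.12, 2.38 apart, and Fkbp7, a prolyl isomerase of the endoplasmic reticulum, had -1.26 and 1.07, 2.33 apart. None of the 8 passed the limma test of the population difference. Genes picked for opposite directions in the pairs could hardly pass it, so nothing is drawn from that.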

How the results depend on the processing

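The counts of 1746 genes higher and 2609 lower stayed within a factor of 1.5 under most alternatives. Lower calls came to 1718 after quantile normalization and 4369 when the floor was the 20th percentile, and higher calls to 1158 with the mean of probe sets. A 1.5-fold threshold gave 2737 and 4157, and 4-fold gave 514 and 789. In limma, leaving out 1 array gave 0 to 688 genes higher and 0 to 1106 lower; with fewer arrays the fit has fewer residual degrees of freedom. Of 246 named genes, 229 kept their call status after quantile normalization, 233 after cyclic loess and 217 with the mean of probe sets; the log2 of Tubb6 reversed to -2.76 at the 20th percentile floor. In 40 of 44 lists the median kept its sign, and 38 stayed on their side of the median of all genes. The arrays are paired by genotype throughout, and genotype is a term of the model. The replicate number is the same in every group and gives no further pairing. Genes under the floor on the activated arrays have only bounds, so their fold depends on the floor.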
